A study of Rattus norvegicus with 6 samples.

Results

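The molecular clock was examined through 10 genes of its core loops in cultured rat cells of the nucleus pulposus, the soft inner part of the intervertebral disc. The genes are the activators Bmal1 and Clock, the repressors Per1, Per2, Per3, Cry1 and Cry2, the nuclear receptors Nr1d1 and Nr1d2, and the output factor Dbp. They were chosen by name, and all 10 were found by Entrez identifier among the 17139 genes of the count table, each with 1 row. Polyadenylated RNA of primary cultured cells was sequenced. There were 3 libraries of untreated cells (control) and 3 libraries of cells given 10 µM bradykinin, a kinin peptide. The samples titled B2R carry a treatment label that names bradykinin, and that label was followed. Rat strain, sex and age, the length of treatment, the hour of harvest and any synchronisation of the cells are not given in the sources used here. No label says whether replicates were separate animals or cultures, so p-values reflect only how these libraries vary, and that variation may be technical.

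The mammalian clock is a feedback loop of transcription. CLOCK and BMAL1 proteins pair, bind E-boxes in DNA and switch on the Per, Cry, Nr1d1, Nr1d2 and Dbp genes. PER and CRY proteins then return to the nucleus and block that pair, the REV-ERB receptors made by Nr1d1 and Nr1d2 repress Bmal1 through ROR elements, and DBP activates genes that carry D-boxes. In mice, disc tissue is known to hold a working clock of its own. A single harvest gives the level of each gene at that hour and not its rhythm, and in bulk RNA a shift of level in each cell and a shift in the make-up of the cells cannot be told apart.

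Total counts per library ranged from 12883067 to 15462764. Levels are in CPM, library-scaled counts (TMM), with means ± SD over 3 libraries. Changes are log2 ratios of bradykinin to control ± SE from edgeR's quasi-likelihood test. Transcript lengths were not used, so levels are compared between libraries and never between genes. Bradykinin replicate 3 stood apart: the SD across tested genes of its log2 CPM minus the control mean was 0.62, against 0.29 to 0.30 in the other bradykinin libraries. Of the nucleus pulposus markers, Acan, the gene of the matrix proteoglycan aggrecan, was at 301 to 511 CPM with bradykinin and 257 to 272 CPM in controls. Pax1 was at 82.3 to 94.7 against 97.1 to 117 CPM, Car3 at 2.60 to 3.58 against 7.66 to 8.49 CPM, and neither overlapped. Foxf1, Cd24, Car12 and Krt8 overlapped between groups, with Krt8 at 0.788 to 1.76 CPM and Car12 at 0.455 to 1.02 CPM, and Krt18, Krt19 and Tbxt were not analysed here. By edgeR 0 of these 7 passed in 6 libraries. Without replicate 3 Acan passed as higher (1.95% of all genes) and Car3 as lower (1.15%). Of the chondrocyte markers, which also include Acan, the collagen gene Col2a1 was at 0 to 0.130 CPM. Over the 6 libraries Sox9 was at 15.3 to 27.9 CPM, Comp at 3.31 to 5.79 CPM and Matn3 at 0.779 to 1.10 CPM. Each of them overlapped between groups. The summed level of 5 fibroblast markers was 65409 to 81443 CPM with bradykinin and 69033 to 74033 CPM in controls. By edgeR 0 of these fibroblast markers passed, in 6 libraries or without replicate 3. The summed level of 4 endothelial markers was at most 1.53 CPM in any library, and that of 3 macrophage and blood markers at most 0.473 CPM. The summed level of 5 division markers was 783 to 1107 CPM with bradykinin and 747 to 861 CPM in controls, and that of 5 smooth muscle and pericyte markers was 2162 to 3051 and 2950 to 3080 CPM. None of the 9 tested genes of these 2 lists passed in 6 libraries. Without replicate 3 there were 8 that did (3.1% of all genes). Top2a, Ccnb1, Cdk1, Aurkb and Des were higher, and Myh11, Acta2 and Tagln were lower. The part of all these markers in the clock gene results was not tested.

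The promoters carry some of the elements through which the loop is known to run. RefSeq windows on the GRCr8 assembly, 250 bases before to 50 after an annotated start, were matched for all members but Cry1, 9 of the 10 genes (11 windows, since Clock and Nr1d1 have 2 each). Motifs were searched on both strands: the E-box CACGTG, its variant CACGTT (E'-box), the D-boxes TTATGTAA and TTACGTAA, the ROR element core TAGGTCA, and the cAMP element TGACGTCA with its core TGACG, which every full element contains. The stretches below show the bases before the start, 5′ to 3′ on the gene's strand, of the genes whose window holds a circadian element, with matches in capitals. Per2 holds a D-box and an E'-box, Cry2 an E'-box on the other strand, the 2 starts of Nr1d1 an E-box and an E'-box on the other strand, and Bmal1 the ROR element core.
Per2, chr9:99496994-99497243, minus strand: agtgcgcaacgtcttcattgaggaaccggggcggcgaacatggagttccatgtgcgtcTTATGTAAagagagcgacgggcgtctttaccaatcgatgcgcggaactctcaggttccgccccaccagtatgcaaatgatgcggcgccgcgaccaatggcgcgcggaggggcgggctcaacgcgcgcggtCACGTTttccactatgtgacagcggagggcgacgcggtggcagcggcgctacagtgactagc
Cry2, chr3:98860438-98860687, minus strand: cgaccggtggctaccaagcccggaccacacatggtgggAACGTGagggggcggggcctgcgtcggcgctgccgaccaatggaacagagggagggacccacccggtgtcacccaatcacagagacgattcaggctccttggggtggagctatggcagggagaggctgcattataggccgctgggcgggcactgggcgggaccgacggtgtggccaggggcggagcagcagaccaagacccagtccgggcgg
Nr1d1 start 1, chr10:84229455-84229704, minus strand: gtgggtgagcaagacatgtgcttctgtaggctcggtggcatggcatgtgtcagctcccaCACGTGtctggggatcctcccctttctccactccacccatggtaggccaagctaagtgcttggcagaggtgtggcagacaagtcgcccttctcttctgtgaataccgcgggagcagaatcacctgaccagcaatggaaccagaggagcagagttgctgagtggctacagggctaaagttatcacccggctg
Nr1d1 start 2, chr10:84231813-84232062, minus strand: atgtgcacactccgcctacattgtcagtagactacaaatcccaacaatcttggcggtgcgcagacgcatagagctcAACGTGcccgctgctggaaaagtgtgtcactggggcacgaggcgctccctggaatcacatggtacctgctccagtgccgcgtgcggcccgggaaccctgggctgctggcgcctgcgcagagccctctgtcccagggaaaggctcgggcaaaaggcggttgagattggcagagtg
Bmal1, chr1:176766078-176766327, plus strand: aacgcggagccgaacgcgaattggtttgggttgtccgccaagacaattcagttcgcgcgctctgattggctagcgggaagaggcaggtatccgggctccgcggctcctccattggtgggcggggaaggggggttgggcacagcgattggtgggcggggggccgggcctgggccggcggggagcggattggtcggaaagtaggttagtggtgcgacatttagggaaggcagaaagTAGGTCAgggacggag

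Counted from the annotated start, the Per2 E'-box spans -62 to -57 and its D-box -192 to -185, and the Bmal1 ROR element core spans -16 to -10. The E-box of Nr1d1 start 1 spans -191 to -186, the E'-box of its start 2 spans -174 to -169, and that of Cry2 -212 to -207. Over all 33469 promoter windows of the same length, 6.42% hold the E-box, 4.83% the E'-box, 0.893% and 0.12% the D-boxes TTATGTAA and TTACGTAA, and 2.63% the ROR element core. TGACG, held by 21.2% of windows, was found in Per2, Per3 and Nr1d2, and TGACGTCA, held by 1.83%, in none of the 11 windows. No searched letters were found in the windows of Per1, Dbp and Clock. A match describes these letters in these windows and is no evidence of binding.

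**Figure D1:**
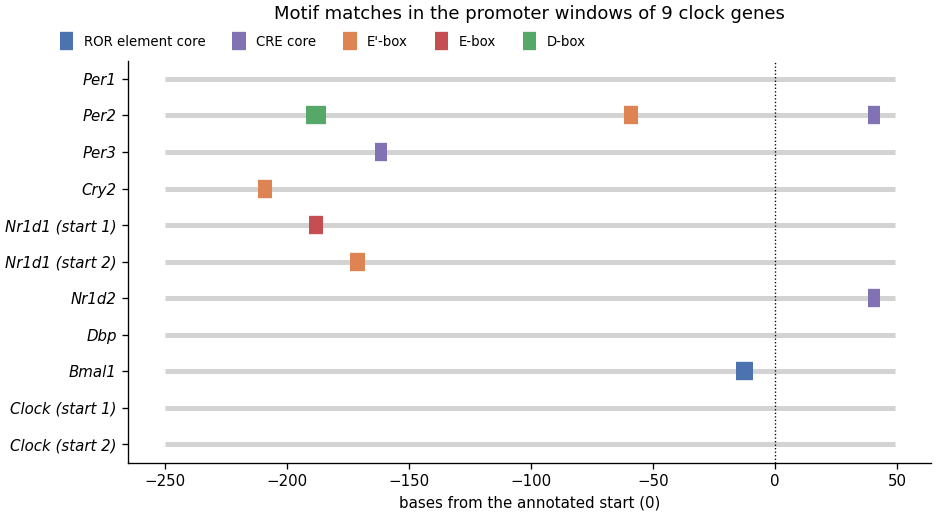
Motif matches in 11 promoter windows of 9 clock genes, with the distance in bases from the annotated start (dotted line at 0) on the x axis and each window as a grey line. Per2 holds a D-box and an E'-box, Bmal1 a ROR element core just before its start, and the 2 Nr1d1 starts an E-box and an E'-box.

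With bradykinin the Per and Cry repressor genes lay low and Nr1d1 and Dbp lay high, but no member passed the test in 6 libraries. Per1, Per2, Per3, Cry1 and Cry2 lay below every control in every bradykinin library, with log2 fold changes of -0.57 to -0.37. Nr1d1 and Dbp lay above every control, with log2 fold changes of 0.31 and 0.40. Bmal1, Nr1d2 and Clock overlapped between groups. By edgeR, 0 of 10 members had an adjusted p of 0.05 or less (0.0% of 12413 tested genes), and the members' adjusted p ranged from 0.678 to 0.942. At an unadjusted p under 0.05 there were 6 members, against 849 of all genes (6.84%). Limma-voom also called 0 genes, and DESeq2 called 44 genes (0.354%) with no member among them. Without bradykinin replicate 3, edgeR called 388 of 12536 genes (3.1%), and 2 members were among them: Per2 on the lower side, with 1.15% of all genes, and Nr1d1 on the higher side, with 1.95%.

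The separation of the groups was the same under each of 3 scalings. With TMM, all 5 Per and Cry genes lay below the controls, where 8.71% of tested genes do, and Nr1d1 and Dbp lay above them, where 8.84% do. The same 7 genes were separated with RLE size factors and with library totals. In unscaled counts the 5 Per and Cry genes and Nr1d1 were still separated, Clock joined the lower side, and Dbp overlapped. The median log2 fold change was -0.31 for the 10 members, -0.47 for the 5 Per and Cry genes and 0.01 for all tested genes. Without bradykinin replicate 3 these medians were -0.12, -0.28 and 0.00. In that fit 7 members had an unadjusted p under 0.05 (15.2% of all genes), the 5 Per and Cry genes lay below the controls (15.4%), and Nr1d1, Dbp and Nr1d2 lay above them (16.2%). Since the members were picked with earlier results of these data known, these shares are a description.

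**Figure D2:**
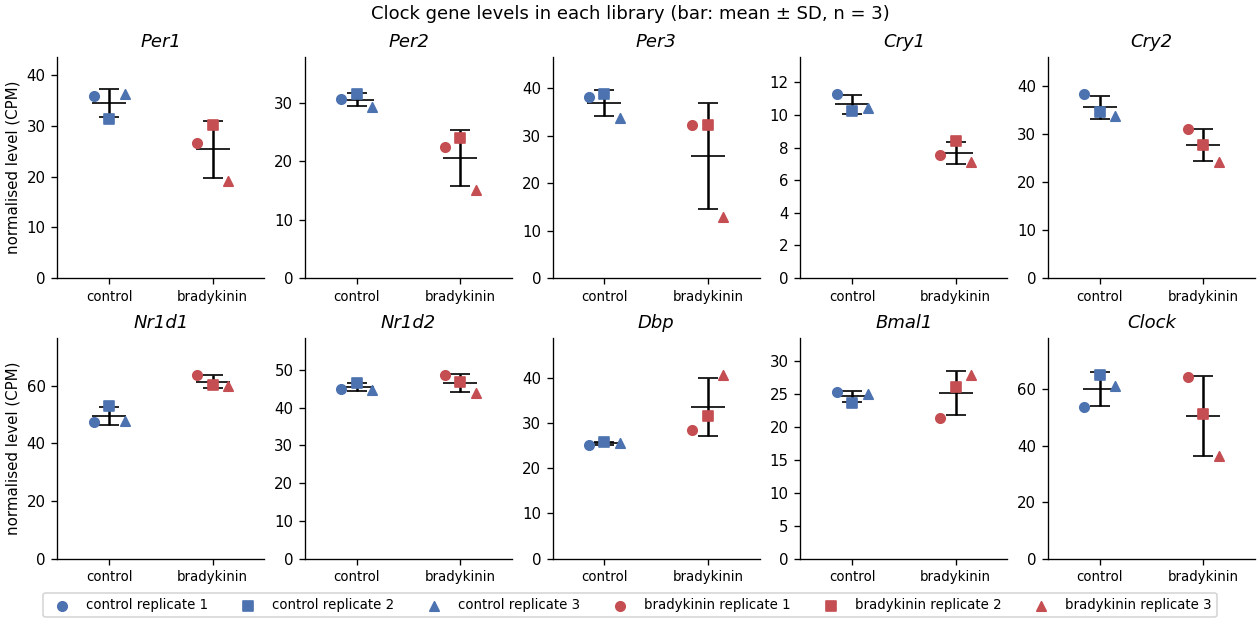
Normalised level (CPM, y axis from 0) of each of the 10 clock genes in the 3 control and 3 bradykinin libraries, with symbols for replicate numbers and bars for mean ± SD (n = 3). All bradykinin points of Per1, Per2, Per3, Cry1 and Cry2 lie under the control points and those of Nr1d1 and Dbp over them, with bradykinin replicate 3 lowest for all 3 Per genes, both Cry genes and Clock and highest for Dbp.

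Per2 (ENSRNOG00000020254) is a period repressor needed for a normal rhythm in mice. Bradykinin replicates 1, 2 and 3 had 22.5, 24.0 and 15.1 CPM, and control replicates 1, 2 and 3 had 30.7, 31.6 and 29.4 CPM. The controls lay close together, and every bradykinin library lay below them, replicate 3 furthest. It averaged 20.6 ± 4.79 CPM with bradykinin against 30.6 ± 1.10 CPM without, a log2 fold change of -0.57 ± 0.18 (edgeR adjusted p = 0.693). Without bradykinin replicate 3 it fell by 0.39 ± 0.08 on the log2 scale (edgeR adjusted p = 0.025). That call was lost when bradykinin replicate 1 (adjusted p = 0.121) or control replicate 1, 2 or 3 (0.0987, 0.118 and 0.0527) was left out as well, while the log2 fold change stayed between -0.44 and -0.35 over all alternatives of that fit.

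Per1 (ENSRNOG00000007387), the period gene known for its quick response to stimuli, measured 26.6, 30.2 and 19.2 CPM in bradykinin replicates 1 to 3 and 35.9, 31.4 and 36.3 CPM in the controls. The groups did not overlap, but bradykinin replicate 2 lay just below control replicate 2. Its log2 fold change was -0.45 ± 0.17 (edgeR adjusted p = 0.714) and -0.28 ± 0.09 without bradykinin replicate 3 (0.137). Per3 (ENSRNOG00000018413), a period gene that mice can lack with little loss of rhythm, was at 32.2, 32.2 and 12.8 CPM with bradykinin against 38.1, 38.8 and 33.7 CPM in controls. Replicates 1 and 2 of the bradykinin group lay just below the controls, and replicate 3 far below. Its log2 fold change of -0.52 ± 0.32 (edgeR adjusted p = 0.737) was -0.20 ± 0.08 without that library (0.276).

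Cry1 (ENSRNOG00000006622), a strong repressor of the CLOCK and BMAL1 pair, was at 7.57, 8.43 and 7.09 CPM with bradykinin against 11.3, 10.2 and 10.4 CPM in controls. It had the fewest counts of the members, 96 to 174 per library, and the smallest p among them in 6 libraries. The 3 bradykinin libraries lay close together, and the log2 fold change was -0.47 ± 0.14 with all libraries (edgeR adjusted p = 0.678) and -0.41 ± 0.14 without bradykinin replicate 3 (0.143). Cry2 (ENSRNOG00000007478), its paralogue, was at 30.9, 27.7 and 24.2 CPM with bradykinin against 38.3, 34.5 and 33.8 CPM in controls. Here too all bradykinin libraries lay under the controls, and the log2 fold change was -0.37 ± 0.13 (edgeR adjusted p = 0.710) and -0.28 ± 0.09 without bradykinin replicate 3 (0.115).

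Nr1d1 (ENSRNOG00000009329), which encodes REV-ERB alpha, measured 63.9, 60.4 and 59.9 CPM in bradykinin replicates 1 to 3 and 47.5, 53.1 and 47.9 CPM in the controls. All bradykinin libraries lay above all controls, and replicate 3 was close to its group. It averaged 61.4 ± 2.19 CPM with bradykinin against 49.5 ± 3.11 CPM without, a log2 fold change of 0.31 ± 0.10 (edgeR adjusted p = 0.689). Without bradykinin replicate 3 it rose by a log2 fold change of 0.33 ± 0.07 (edgeR adjusted p = 0.0225). Leaving out bradykinin replicate 1, control replicate 1 or control replicate 3 as well ended that call (adjusted p = 0.117, 0.111 and 0.0861), with log2 fold changes of 0.29 to 0.38 over all alternatives of that fit.

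Nr1d1 and Thra, which encodes a thyroid hormone receptor, overlap on the GRCr8 assembly, and since no label says that the kit keeps strand, reads of the shared stretch cannot be assigned to one of them by strand. Thra averaged 69.9 ± 2.97 CPM under bradykinin against 69.2 ± 4.89 CPM without it, a log2 fold change of 0.02 ± 0.10 (edgeR adjusted p = 0.962). The ranges of Thra overlapped between the groups. On the same assembly Per2, Cry1, Cry2 and Clock also overlap other annotated genes, none of them found in the count table. Reads of those shared stretches cannot be assigned by strand either, and their part in the counts was not tested. Nr1d2 (ENSRNOG00000046912), which encodes REV-ERB beta, was at 48.8, 46.8 and 43.9 CPM with bradykinin against 44.9, 46.6 and 44.6 CPM in controls. Its groups overlapped, and its log2 fold change was 0.03 ± 0.09 (edgeR adjusted p = 0.902). The difference between the changes of the 2 REV-ERB genes was not tested.

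Dbp (ENSRNOG00000021027), a transcription factor whose gene is a strongly rhythmic direct target of CLOCK and BMAL1, measured 28.4, 31.5 and 40.7 CPM in bradykinin replicates 1 to 3. Its controls were at 25.2, 25.8 and 25.5 CPM, the tightest of any member by SD. All bradykinin libraries lay above them, replicate 3 by the most. The log2 fold change was 0.40 ± 0.15 (edgeR adjusted p = 0.714), and without bradykinin replicate 3 it was 0.23 ± 0.08 (0.184).

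The activators showed no separation. Bmal1 (ENSRNOG00000014448) was at 21.4, 26.1 and 27.9 CPM with bradykinin against 25.3, 23.7 and 24.9 CPM in controls, with the bradykinin libraries on either side of the controls. Its log2 fold change of 0.03 ± 0.13 (edgeR adjusted p = 0.942) turned to -0.05 ± 0.10 without bradykinin replicate 3. Clock (ENSRNOG00000002175) was at 64.5, 51.4 and 36.2 CPM with bradykinin against 53.7, 65.2 and 61.3 CPM in controls. Bradykinin replicate 1 lay within the control range, replicate 2 just under it and replicate 3 well under it. The log2 fold change was -0.25 ± 0.20 (edgeR adjusted p = 0.741). It was -0.05 ± 0.10 without bradykinin replicate 3 and -0.46 ± 0.18 without bradykinin replicate 1.

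**Figure D3:**
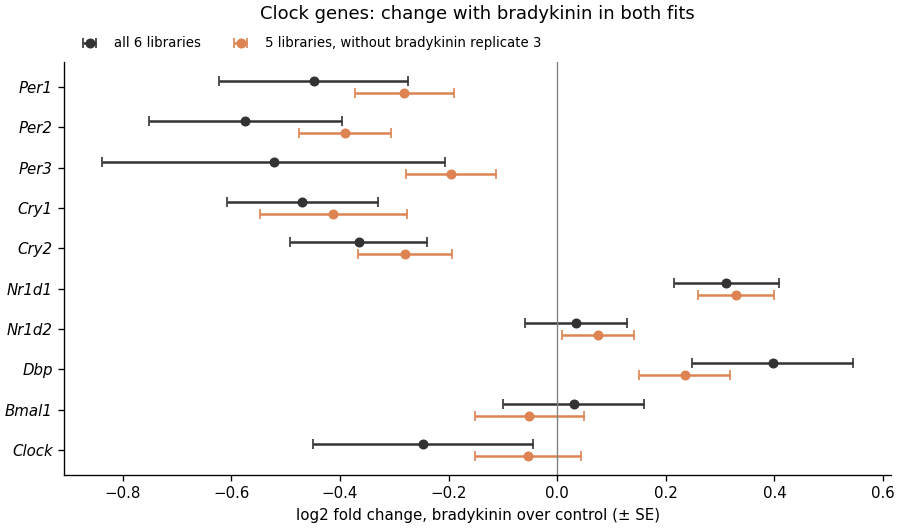
Log2 fold change (bradykinin over control, x axis, ± SE) of the 10 clock genes from edgeR with all 6 libraries (dark) and without bradykinin replicate 3 (orange). The 5 Per and Cry genes lie left of 0 and Nr1d1 and Dbp right of 0 in both fits, and the SE of Per3 shrinks from 0.32 to 0.08 without that library.

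Ratios of counts within a library need no scaling. The summed counts of Per1, Per2, Per3, Cry1 and Cry2 per count of Nr1d1 came to 1.87, 2.03 and 1.31 for bradykinin replicates 1 to 3 and to 3.25, 2.76 and 3.00 for control replicates 1 to 3. Every bradykinin library had fewer Per and Cry counts for each Nr1d1 count than any control. Per2 counts per Dbp count were 0.794, 0.763 and 0.371 with bradykinin and 1.22, 1.23 and 1.15 in controls. Cry1 counts per Bmal1 count were 0.354, 0.323 and 0.254 with bradykinin and 0.447, 0.433 and 0.417 in controls. The Per and Cry genes lay below all controls and Nr1d1 and Dbp above them. The ratios to Nr1d1 and Dbp therefore had to separate and add nothing to those levels. All these ratios were formed after the values had been seen, show unequal levels and carry no test.

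Bradykinin replicate 3 differed from controls by the genomic length of genes. With tested genes divided into 3 equal groups by span on the GRCr8 assembly (a span was found for 93.7% of them), its median log2 CPM minus the control mean was 0.31 in the shortest, 0.03 in the middle and -0.36 in the longest. In bradykinin replicates 1 and 2 those medians were between -0.01 and 0.02. Nr1d1 and Dbp are in the shortest group, where the log2 deviations of replicate 3 were 0.28 and 0.67, and Bmal1, Clock and Cry1 in the longest, where they were 0.18, -0.72 and -0.58. Per1, Per2, Per3, Cry2 and Nr1d2 are in the middle group, whose median was 0.03 in that library. Their own deviations were -0.84, -1.01, -1.51, -0.55 and -0.05. Single genes spread widely around the medians in that library, with an SD of 0.62 over all tested genes. In the middle group, for example, Ddx6 and Nfil3 of the wider clock pathway deviated by -1.23 and 0.74. By rank of span, Per2 (66.1%) and Per3 (62.6%) are near the longest group and Per1 (33.8%) near the shortest. The part of span in these deviations was not tested. In replicates 1 and 2 the deviations of the 5 Per and Cry genes were all negative, with medians of -0.37 and -0.33, and those of Nr1d1 were 0.37 and 0.29.

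**Figure D4:**
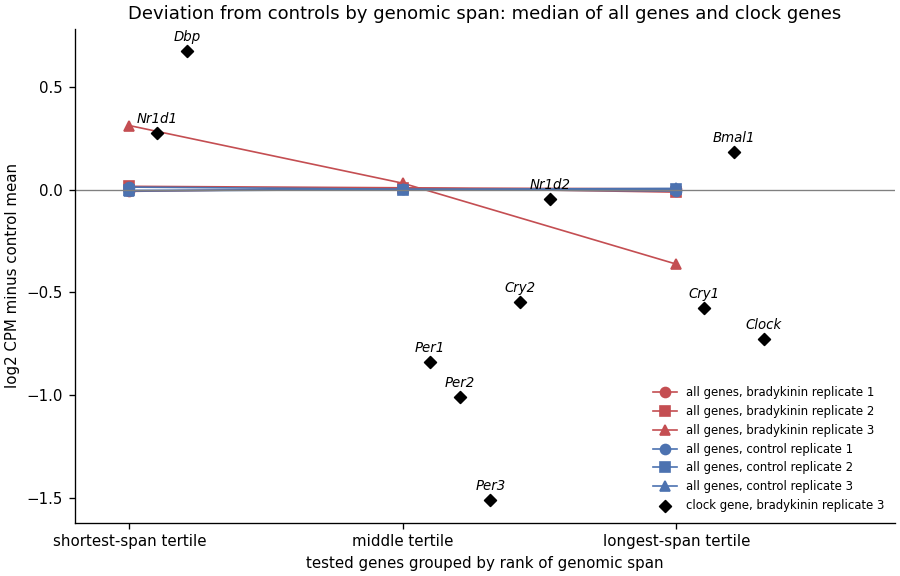
Log2 CPM minus the control mean (y axis) by tertile of genomic span (x axis): lines give the median of all tested genes in each library, and black diamonds give the clock genes in bradykinin replicate 3. The line of bradykinin replicate 3 runs from 0.31 to -0.36 while the other 5 stay near 0, and Per1, Per2, Per3 and Cry2 lie under it in the middle tertile.

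The wider clock machinery was tested in the same fits. Of 36 further genes listed for the pathway, 34 were in the table and 31 were tested. By edgeR 0 of the 31 passed in 6 libraries, with 3 at an unadjusted p under 0.05 (6.84% of all genes). Their median log2 fold change was -0.06, beside 0.01 for all genes. In 6 libraries Wee1 alone of the 31 lay above all controls, where 8.84% of all genes do, and Bhlhe41 alone below them, where 8.71% do. Without bradykinin replicate 3, 8 of the 31 lay above all controls (16.2% of all genes) and 2 below (15.4%). Their median was then 0.02, beside 0.00 for all genes, with 20 genes above 0 and 11 below, against 14 above and 17 below in 6 libraries. Wee1 was the 1 gene called in that fit, where 3.1% of all genes were.

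Wee1, a kinase that holds cells before mitosis and is clock-controlled in mouse liver, was at 28.8, 30.3 and 28.2 CPM with bradykinin against 21.1, 24.6 and 22.5 CPM in controls. The groups did not overlap, and its log2 fold change was 0.36 ± 0.11 (edgeR adjusted p = 0.681) and, where it was called, 0.38 ± 0.09 (0.0419). Bhlhe41, which encodes the E-box repressor DEC2, was at 29.2, 29.0 and 28.4 CPM with bradykinin against 34.0, 34.6 and 39.5 CPM in controls. All its bradykinin libraries lay below the controls, with a log2 fold change of -0.32 ± 0.11 (edgeR adjusted p = 0.710), while Bhlhe40, its paralogue DEC1, overlapped between groups at 0.13 ± 0.11 (0.737).

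Among the other transcription factors, Npas2, a paralogue of Clock that also pairs with BMAL1, was at 22.0, 21.6 and 14.9 CPM with bradykinin against 16.7, 17.3 and 16.9 CPM in controls. Bradykinin replicates 1 and 2 lay above the controls and replicate 3 below them, so the log2 fold change was 0.20 ± 0.17 (edgeR adjusted p = 0.746) with it and 0.36 ± 0.09 (0.0615) without. Nfil3, the repressor that competes with DBP at D-boxes, was at 32.2, 38.2 and 50.8 CPM with bradykinin against 30.7, 33.6 and 27.5 CPM in controls. Its groups overlapped, and its log2 fold change was 0.40 ± 0.18 (edgeR adjusted p = 0.737). The DBP relative Tef had a log2 fold change of -0.16 ± 0.11, and Hlf, the other one, had 2 counts in control replicate 1 and 0 in the other libraries and was not tested.

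Rora and Rorb, whose receptor products activate Bmal1 through ROR elements, were at low counts and did not pass. Rora averaged 5.39 ± 2.05 CPM with bradykinin against 6.50 ± 0.643 CPM without, and Rorb averaged 2.51 ± 0.179 and 3.03 ± 0.599 CPM. Ciart, a further repressor of the CLOCK and BMAL1 pair, was at 2.84, 2.11 and 1.43 CPM with bradykinin against 2.60, 3.72 and 2.70 CPM in controls, with a log2 fold change of -0.51 ± 0.30 (edgeR adjusted p = 0.737). Its bradykinin replicate 1 lay within the control range.

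Genes whose products set the stability of PER proteins were near control levels. The kinase genes Csnk1d and Csnk1e, whose products phosphorylate PER, had log2 fold changes of 0.00 ± 0.09 and -0.06 ± 0.11. Btrc, an adapter that marks PER for breakdown, averaged 25.8 ± 2.22 CPM with bradykinin against 27.6 ± 0.109 CPM without. None of these 3 passed, in 6 libraries or without bradykinin replicate 3. Of the remaining genes, those with the smallest p after Wee1 were Noct, a rhythmic gene in mouse tissues, with 1.11 ± 0.44 at 0.772 to 3.32 CPM, the deubiquitinase gene Usp2 with 0.15 ± 0.15, the cAMP-response factor gene Crem with -0.17 ± 0.17 and the HLH inhibitor gene Id2 with -0.14 ± 0.14. Noct overlapped between groups (edgeR adjusted p = 0.714), and its log2 fold change was 0.72 ± 0.42 without bradykinin replicate 3 (0.460).

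**Figure D5:**
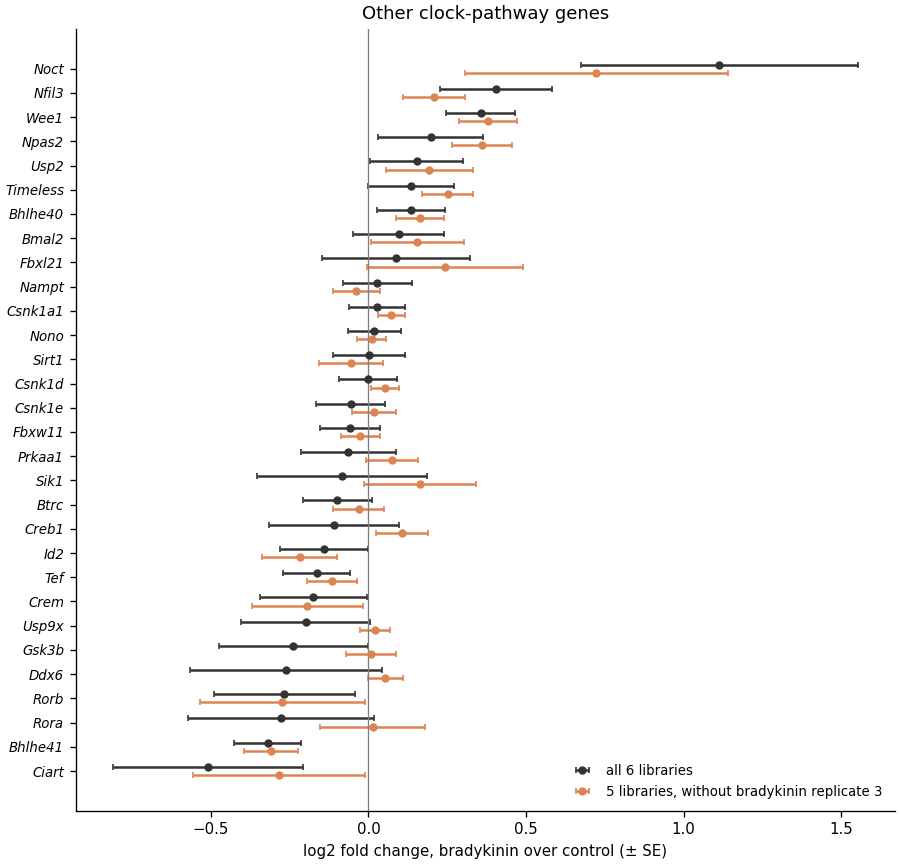
Log2 fold change (bradykinin over control, x axis, ± SE) of tested further clock-pathway genes, with all 6 libraries (dark) and without bradykinin replicate 3 (orange). Most lie close to 0, with Wee1 right of 0 and Bhlhe41 left of 0 in both fits, and Noct has the widest error.

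The authors' table also marks genes with KEGG pathways, and its circadian rhythm entry gives another list of the pathway. It covers 29 genes, of which 27 were tested, including 8 of the 10 members (Nr1d2 and Dbp are not among them). Of the 19 tested genes that are no member, 2 lay below all controls (8.71% of all genes) and 0 above (8.84%). By edgeR 0 of the 19 passed in 6 libraries, with 1 at an unadjusted p under 0.05 (6.84% of all genes). Their median log2 fold change was -0.06. Without bradykinin replicate 3, 3 lay below all controls (15.4%) and 3 above (16.2%), and the median was -0.02.

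Cry1 had the smallest p of the members, and the genes most like it across the 6 libraries were Pard6g, Klhdc8a, Ebf4, Cadm1 and Plxdc2. Likeness was the root mean square difference of log2 CPM centred on the mean of the 6 libraries, and it was 0.04, 0.04, 0.05, 0.06 and 0.06 for them. Klhdc8a averaged 73.7 ± 3.42 CPM with bradykinin against 105 ± 5.80 CPM without, and Plxdc2 at 138 ± 18.4 and 203 ± 11.3 CPM. All 5 lay below the controls in every bradykinin library, which the choice by likeness to Cry1 largely fixes.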

How the data were processed

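The authors deposited whole-number counts per Ensembl gene. Per the submitters' processing notes reads were processed on build Rnor_6.0 with HISAT2 2.2.1, RSEM 1.3.3, fastp 0.23.2, DESeq2 1.34.0, SAMtools and Bowtie2 2.4.5. RSEM estimates can be fractions, and no source used here says how they were rounded. Groups came from the treatment labels.

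Genes were named by Entrez identifier through RefSeq (GRCr8), and promoter sequences are RefSeq's on that assembly, which is not the build of the counts. Libraries were scaled by TMM over 12413 genes kept by filterByExpr and compared with edgeR 4.0.16 (R 4.3.3), a two-sided quasi-likelihood test with Benjamini-Hochberg adjustment over all tested genes, called at 0.05. Deviations from the control mean use log2 CPM with a prior count of 2. SE is the log2 change over the square root of F. The script was tested on simulated data. Members, gene lists and motifs were chosen with earlier results of these data known. Named were all members, listed regulators and up to 5 others with the smallest p. Some of the listed regulators are not reported here, and counts over the list include them. Alternatives were RLE factors, library totals, DESeq2 1.42.0, limma-voom (limma 3.58.1), 2 other filters, each library left out and a replicate block. Leaving out each library in turn was planned. The fit without bradykinin replicate 3 was singled out, and its alternatives were chosen, after the data were seen. The common coefficient of variation between libraries by edgeR was 0.168 in 6 libraries and 0.0537 in that fit. The p-values of that fit therefore reflect only the spread left without the most divergent library. Members had 96 to 929 counts per library, and the lowest, Cry1, is the least precise by counting.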

Additional observations from a re-analysis of the deposited data

How the results depend on the processing

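By edgeR 0 genes, 0 clock members and 0 further pathway genes were called in 6 libraries, and this held with RLE factors, library totals, limma-voom and other filters. DESeq2 called 44 genes and no member. Leaving out a library gave 0 to 388 genes, 0 to 2 members and 0 to 1 further genes, the upper values all without bradykinin replicate 3 (Per2, Nr1d1 and Wee1). Of 130 member changes under alternatives of the 6-library fit, 126 kept direction and side of the threshold, 2 (Per2 and Nr1d1) were newly called, and 2 turned: with each library left out, Bmal1 ran from -0.051 (without bradykinin replicate 3) to 0.13 and Nr1d2 from -0.0002 (without bradykinin replicate 1) to 0.074. In the fit without bradykinin replicate 3, no filter gave 681 genes, and leaving out a further library gave 138 to 333 genes and 0 to 2 members. There, with each further library left out, Bmal1 ran from -0.21 to 0.083 (without bradykinin replicate 1) and Clock from -0.22 to 0.10 (without bradykinin replicate 2), passing 0 also without control replicate 2 (0.009). With bradykinin replicate 1 or 2 gone as well, the lone bradykinin sample is taken to vary as the controls do. Library totals turned the split of that fit from 244 higher and 144 lower to 162 and 185. Of 110 member changes there, 100 kept direction and side of the threshold, and 7 (Per2 and Nr1d1) lost the call. The causes were not tested. The replicate block also called 0 genes, 0 members and 0 further genes. Deviations of same-numbered libraries correlated across genes at -0.09, -0.02 and -0.05, so the numbers were not taken as pairs. No sample correlated best with its own number. Counts of 96 to 174 limit Cry1, and the low counts of Ciart, Noct and Rorb limit those genes.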
